A study of Mus musculus with 17 samples.

Results

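The nuclear genes of oxidative phosphorylation were followed across 3 sorted epidermal stem cell populations in mice with deletion of Pelo and in control mice. Genes were taken by symbol among annotated protein-coding genes: those starting with Nduf followed by a, b, c, s or v, with Uqcr, with Cox4 to Cox8 or with Atp5, the Sdh subunit genes, and Cycs and Cyc1. This gave 95 of the 48820 genes in the table, of which 91 had enough counts to be tested. By complex there were 36 subunit genes of complex I and 8 Ndufaf genes that assemble it, 4 of complex II, 9 of complex III, 1 for cytochrome c, 20 of complex IV and 17 of complex V. Ndufa4 and Ndufa4l2 were placed with complex IV, where the Ndufa4 protein is now known to sit. Some symbols that the pattern takes are not stable subunits, such as Cox7a2l, which helps to join complexes III and IV, and Atp5s, a coupling factor of the ATP synthase.

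Complexes I to IV pass electrons from nutrients to oxygen in the inner mitochondrial membrane and, except for complex II, pump protons as they do so, and complex V, the ATP synthase, uses the returning protons to make ATP. Cytochrome c carries electrons between complexes III and IV. Most subunits are encoded in the nucleus and a small core set in the mitochondrial genome, so both genomes have to be expressed to build the chain. Hair follicle stem cells are often described as relying heavily on glycolysis. Pelo encodes a ribosome rescue factor that releases ribosomes stalled on mRNA.

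The mutant mice were C57BL/6, aged 3 months, and carried Pelo fl/fl together with an EGFP-CreERT2 cassette at Lrig1, Lgr6 or Lgr5, so that 4-hydroxytamoxifen deletes Pelo only in cells that express that stem cell gene. The control mice, labelled WT, were also aged 3 months. They were Pelo fl/+ with the same cassettes and the same 4-hydroxytamoxifen treatment, so they carry 1 floxed allele and the Cre driver too. From each population 1000 GFP-positive epidermal cells were sorted by flow cytometry, and their RNA was made into libraries by the full-length method of Picelli and colleagues. For the comparisons, 3 libraries each of Pelo -/- Lrig1, Pelo -/- Lgr6, Pelo -/- Lgr5, WT Lgr6 and WT Lgr5 cells, and 2 of WT Lrig1 cells were analysed here. The labels do not say whether replicates were separate mice, so p-values measure the spread between these libraries. In such bulk libraries fewer cells of a type and less RNA per cell cannot be told apart.

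Levels are CPM, counts scaled to a common library size with edgeR's trimmed mean of M values. The scaling factors were 0.688 to 0.964 in Lrig1 and Lgr6 libraries and 0.99 to 1.91 in Lgr5 libraries. A lower factor raises CPM, so genes higher in Lrig1 or Lgr6 cells differ more from Lgr5 cells in CPM than in unscaled shares of counts. Libraries held 9647507 to 28098841 counts. Pelo itself was not lower by test in any population labelled Pelo -/-, counted over the whole gene. It had 3.82, 0.483 and 0.857 CPM in libraries labelled Pelo -/- Lrig1, against 6.05 and 3.72 CPM in WT Lrig1 libraries, a log2 fold change of -1.49 ± 0.83 (SE). In Lgr6 cells it had 3.1, 4.94 and 4.2 CPM in libraries labelled Pelo -/-, against 4.12, 5.39 and 2.02 CPM in WT. In Lgr5 cells it had 11.8, 23.6 and 15.1 CPM in libraries labelled Pelo -/-, against 17.4, 5.9 and 17.3 CPM in WT. The adjusted p of edgeR's quasi-likelihood test was 1.0 in each of the 3 populations, and a count over the whole gene does not show which exons were deleted. Lgr5 matched its label, at 276 to 570.0 CPM in the 6 Lgr5 libraries and at most 29.4 CPM in the other 11. Lrig1 mRNA did not set the Lrig1 libraries apart, with 37.7, 7.42 and 11.6 CPM in Pelo -/- Lrig1 and 39.3 and 41.7 CPM in WT Lrig1 libraries, beside 39.3 to 60.02 CPM in the 6 Lgr6 libraries.

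The bases before the transcription start are shown for 3 genes that were higher in both control comparisons described next: Ndufa8 and Ndufs5, accessory subunits of complex I, and Sdhd, a membrane anchor of complex II. They were picked because a match to a factor known to bind respiratory genes lies within them. The 250 bases before the start are from RefSeq (GRCm38.p6), at chr2:36049339-36049588 for Ndufa8, chr9:50603850-50604099 for Sdhd and chr4:123718187-123718436 for Ndufs5, all on the minus strand and printed 5′ to 3′ along the gene. Capitals mark matches on either strand to the motifs of NRF1, which has 1 free position, of GABP (CCGGAAG) or of ERR (CAAGGTCA).
Ndufa8: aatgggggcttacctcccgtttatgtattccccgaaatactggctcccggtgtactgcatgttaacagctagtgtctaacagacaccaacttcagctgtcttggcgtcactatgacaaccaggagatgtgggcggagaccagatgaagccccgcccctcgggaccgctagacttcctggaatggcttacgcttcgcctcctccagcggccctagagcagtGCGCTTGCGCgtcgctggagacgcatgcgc
Sdhd: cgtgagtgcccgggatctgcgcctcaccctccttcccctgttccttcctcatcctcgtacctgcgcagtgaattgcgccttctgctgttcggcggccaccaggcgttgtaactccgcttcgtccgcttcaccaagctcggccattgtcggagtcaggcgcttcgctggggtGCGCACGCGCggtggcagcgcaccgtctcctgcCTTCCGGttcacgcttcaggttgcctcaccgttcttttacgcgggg
Ndufs5: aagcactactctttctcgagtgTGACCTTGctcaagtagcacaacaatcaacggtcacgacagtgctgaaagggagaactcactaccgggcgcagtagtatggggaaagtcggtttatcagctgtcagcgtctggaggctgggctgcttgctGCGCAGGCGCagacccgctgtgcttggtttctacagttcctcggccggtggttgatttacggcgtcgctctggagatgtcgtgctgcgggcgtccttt

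In these bases Ndufa8 held 1 NRF1 match, Sdhd an NRF1 and a GABP match (an ERR match lies after its start), and Ndufs5 an NRF1 and an ERR match. Promoter windows of 300 bases, from 250 before to 50 after the start, were found for 77 of the 95 genes. An NRF1 match lay in 19 of the 77 (24.7%), beside 5.19% of the windows of all 27025 genes. The GABP letters were in 18 of 77 (23.4%), beside 9.93% of all genes. The longer YY1 motif matched 5 of 77, beside 0.755% of all genes, and ERR matched 4 of 77, beside 1.76%. Of the 47 genes with a window that were called in both control comparisons, 12 had an NRF1, 13 a GABP, 4 a YY1 and 3 an ERR match. Whether a match goes with being called was not tested. A match is a run of letters and not a shown binding site.

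Nuclear respiratory genes were higher in WT Lrig1 cells and in WT Lgr6 cells than in WT Lgr5 cells, in all 5 complexes. In WT Lrig1 against WT Lgr5, 58 of the 91 tested genes were higher and 0 were lower at an adjusted p under 0.05 in edgeR's quasi-likelihood test, beside 9.09% of all 30405 tested genes higher and 1.99% lower. Their median log2 fold change was 1.93, and that of all genes was -0.99. All genes were not matched to these in level or SE, and their median SE in this comparison was 1.25. In WT Lgr6 against WT Lgr5, 57 were higher and 0 lower, beside 10.6% of all genes higher and 1.57% lower, with medians of 1.76 and -0.49. Both comparisons use the same 3 WT Lgr5 libraries. The 95 genes took 1.61% and 1.92% of all counts in WT Lrig1 libraries and 1.41%, 1.72% and 1.74% in WT Lgr6 libraries, against 0.978%, 1.12% and 0.551% in WT Lgr5 libraries. Every Lrig1 and Lgr6 library stood above every WT Lgr5 library in that share.

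Single libraries set how many genes passed. In WT Lrig1 against WT Lgr5 the count was 22 without WT Lrig1 replicate 2, which leaves 1 library in that group whose spread is taken from the other groups, and 34 without WT Lgr5 replicate 3. The count for WT Lgr6 against WT Lgr5 was 27 without WT Lgr6 replicate 3 and 30 without WT Lgr5 replicate 3. Of the genes called, 22 and 26 stayed called under every left-out library and every other setting tried. Members were more even within the Lrig1 and Lgr6 groups than within the Lgr5 groups: the median coefficient of variation of a gene was 0.205 in Pelo -/- Lrig1, 0.163 in WT Lrig1, 0.211 in Pelo -/- Lgr6 and 0.335 in WT Lgr6 libraries, beside 0.612 in Pelo -/- Lgr5 and 0.58 in WT Lgr5 libraries.

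**Figure D1:**
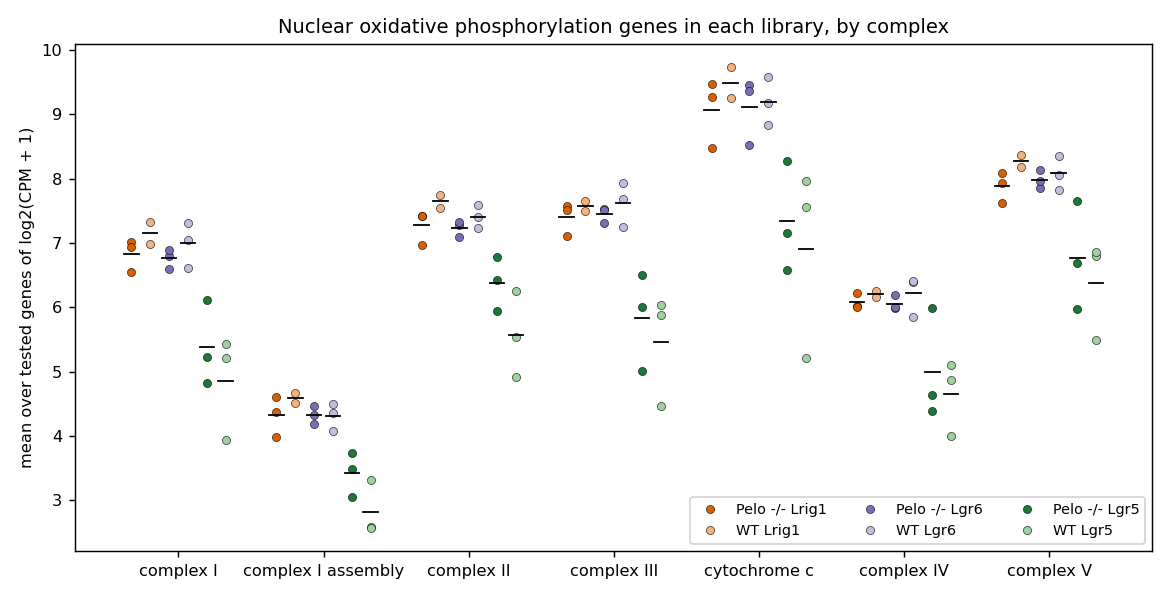
Mean log2(CPM + 1) over the tested genes of each complex (vertical axis) in each of the 17 libraries (points), with group means as lines. The Lrig1 and Lgr6 libraries lie together, and the Lgr5 libraries lie lower and wider apart, with 1 Pelo -/- Lgr5 library within the range of the others in complexes IV and V.

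Complex I takes electrons from NADH and is the largest complex of the chain. Of its 36 subunit genes, 31 were higher in WT Lrig1 against WT Lgr5 and 28 in WT Lgr6 against WT Lgr5, with median log2 fold changes of 2.25 and 1.96. Ndufs8, a core subunit that holds iron-sulfur clusters, had 159 and 260.2 CPM in WT Lrig1 libraries and 209, 173 and 307 CPM in WT Lgr6 libraries, against 34.3, 48.7 and 15 CPM in WT Lgr5 libraries. Ndufa8 had 69.8 and 102 CPM in WT Lrig1 libraries and 72.8, 120.0 and 135 CPM in WT Lgr6 libraries, against 10.7, 14.1 and 18 CPM in WT Lgr5 libraries. Neither gene overlapped between WT Lgr5 libraries and the others. The log2 fold changes in WT Lrig1 against WT Lgr5 were 2.68 ± 0.44 for Ndufs8 (SE, adjusted p = 0.000143, edgeR) and 2.59 ± 0.44 for Ndufa8 (adjusted p = 0.000192). In WT Lgr6 against WT Lgr5 they were 2.81 ± 0.42 for Ndufs8 (adjusted p = 3.95e-05, edgeR) and 2.94 ± 0.42 for Ndufa8 (adjusted p = 2.32e-05).

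Ndufs7, which passes electrons on to ubiquinone, differed more in Lgr6 cells by value, at 3.33 on the log2 scale in WT Lgr6 against WT Lgr5 (adjusted p = 7.53e-05, edgeR) and 2.42 in WT Lrig1 against WT Lgr5 (adjusted p = 0.003). Ndufb6 and Ndufs5 were almost absent from some WT Lgr5 libraries. Ndufb6 had 28.4 and 36.6 CPM in WT Lrig1 libraries and 23, 49.2 and 76 CPM in WT Lgr6 libraries, against 0.744, 6.41 and 0 CPM in WT Lgr5 libraries. Ndufs5 had 59.1 and 41.8 CPM in WT Lrig1 libraries and 40.9, 57.1 and 82.5 CPM in WT Lgr6 libraries, against 3.79, 6.6 and 0.109 CPM in WT Lgr5 libraries. Their fitted log2 fold changes in WT Lgr6 against WT Lgr5, 4.37 ± 0.97 and 4.11 ± 0.79, rest on these near-zero values. Per kb of exon, Ndufa1 was the most abundant complex I gene, at 1589.5 ± 385 CPM per kb in WT Lrig1 (SD, n = 2) and 979.9 ± 131 in WT Lgr6 cells, against 323 ± 199.7 in WT Lgr5 cells (SD, n = 3 each). Ndufa1 had 552 and 780.0 CPM in WT Lrig1 libraries and 444, 347 and 440.0 CPM in WT Lgr6 libraries, against 165, 200.1 and 40.8 CPM in WT Lgr5 libraries. It was called in both comparisons, but in WT Lgr6 against WT Lgr5 the call, at an adjusted p of 0.0478 (edgeR), was lost without any single one of the 6 libraries.

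A few complex I genes stood outside the pattern. Ndufab1, the mitochondrial acyl carrier protein, had 11.1 and 16.1 CPM in WT Lrig1 and 14.4, 28.5 and 11.4 CPM in WT Lgr6 libraries, against 23.3, 31.3 and 18.5 CPM in WT Lgr5 libraries. Its log2 fold changes were -0.84 ± 0.56 in WT Lrig1 against WT Lgr5 and -0.43 ± 0.49 in WT Lgr6 against WT Lgr5 (adjusted p = 0.303 and 0.596, edgeR). Ndufs1, the largest core subunit, gave 0.60 and 0.21, and Ndufs3, another core subunit, 0.64 and 1.14, none of which passed. Ndufb2 was listed at only 5.63 and 9.43 CPM in WT Lrig1 libraries and 9.19, 5.7 and 2.3 CPM in WT Lgr5 libraries. Of the 8 Ndufaf assembly genes, 2 passed in each comparison, Ndufaf1 and Ndufaf3. Ndufaf3 had 73.6 and 53.1 CPM in WT Lrig1 libraries and 17.2, 22.7 and 46.3 CPM in WT Lgr6 libraries, against 1.01, 7.95 and 0.492 CPM in WT Lgr5 libraries. The log2 fold change of Ndufaf3 was 4.33 ± 0.97 in WT Lrig1 against WT Lgr5 (adjusted p = 0.0045, edgeR), and its WT Lgr5 libraries lay below all the others.

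Complex II, succinate dehydrogenase, links the TCA cycle to the chain and is built from 4 nuclear genes. Its membrane and iron-sulfur subunits Sdhb, Sdhc and Sdhd were higher in both control comparisons, and its catalytic flavoprotein Sdha was not called in either. Sdhc had 222 and 202 CPM in WT Lrig1 libraries and 168, 151 and 240.3 CPM in WT Lgr6 libraries, against 27.6, 34.4 and 22.5 CPM in WT Lgr5 libraries. Sdhd had 245 and 217 CPM in WT Lrig1 libraries and 182, 148 and 296 CPM in WT Lgr6 libraries, against 39.7, 61.3 and 8.37 CPM in WT Lgr5 libraries. Sdha had 142 and 94.4 CPM in WT Lrig1 and 155, 129 and 76.7 CPM in WT Lgr6 libraries, against 74.1, 113 and 73.6 CPM in WT Lgr5 libraries. For Sdhc and Sdhd the WT Lgr5 libraries lay apart below the others, while those of Sdha overlapped them. In WT Lrig1 against WT Lgr5 the log2 fold changes were 2.91 ± 0.40 for Sdhc (adjusted p = 1.76e-05, edgeR), 2.66 ± 0.53 for Sdhd (adjusted p = 0.00116) and 0.45 ± 0.39 for Sdha (adjusted p = 0.421). In WT Lgr6 against WT Lgr5 they were 2.73 ± 0.37, 2.52 ± 0.50 and 0.47 ± 0.35 (adjusted p = 1.58e-05, 0.000908 and 0.435, edgeR). The difference between subunits was not itself tested. Sdhd was the most abundant of the 4 per kb of exon, at 188 ± 16 CPM per kb in WT Lrig1 (SD, n = 2) and 169 ± 62.7 in WT Lgr6 cells, against 29.6 ± 21.6 in WT Lgr5 cells (SD, n = 3 each).

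Complex III hands electrons to cytochrome c. Of its 9 genes, 5 were higher in each control comparison: Uqcrc1, Uqcrc2, Uqcrq, Uqcrh and Uqcr11. The 2 core proteins Uqcrc1 (chr9:108936633-108949623, GRCm38) and Uqcrc2 carried the smallest p-values. Uqcrc1 had 97.1 and 133 CPM in WT Lrig1 libraries and 81.2, 195 and 236 CPM in WT Lgr6 libraries, against 16, 4.23 and 3.28 CPM in WT Lgr5 libraries. Uqcrc2 had 189 and 110.1 CPM in WT Lrig1 libraries and 171, 113 and 189 CPM in WT Lgr6 libraries, against 10.3, 16.2 and 12.1 CPM in WT Lgr5 libraries. All WT Lgr5 values of both genes lay far below the lowest value in the other control libraries. For Uqcrc1 the log2 fold change was 3.88 ± 0.61 in WT Lrig1 against WT Lgr5 (adjusted p = 0.000114, edgeR) and 4.45 ± 0.60 in WT Lgr6 against WT Lgr5 (adjusted p = 1.65e-05). For Uqcrc2 it was 3.54 ± 0.44 (adjusted p = 6.6e-06, edgeR) and 3.61 ± 0.43 (adjusted p = 2.66e-06).

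The catalytic subunits of complex III did not pass. Cyc1, cytochrome c1, had 53.5 and 61.6 CPM in WT Lrig1 and 51.5, 102 and 48.6 CPM in WT Lgr6 libraries, against 38.4, 91.6 and 13.8 CPM in WT Lgr5 libraries. WT Lgr5 replicate 2 lay within the range of the others, and the other WT Lgr5 libraries below it. Its log2 fold changes were 0.26 ± 0.53 and 0.49 ± 0.48, and those of Uqcrfs1, the Rieske iron-sulfur protein, 1.05 ± 0.44 and 0.94 ± 0.41, in WT Lrig1 and WT Lgr6 against WT Lgr5. Uqcr10, the most abundant complex III gene per kb, was at 1108 ± 155 CPM per kb in WT Lrig1 (SD, n = 2) and 967 ± 216 in WT Lgr6 cells, against 354 ± 218 in WT Lgr5 cells (SD, n = 3 each), and did not pass (adjusted p = 0.0555 and 0.0663, edgeR). Uqcr10 had 583 and 712 CPM in WT Lrig1 libraries and 516, 469.8 and 708 CPM in WT Lgr6 libraries, against 295, 263 and 60.9 CPM in WT Lgr5 libraries. Cycs, cytochrome c itself, was called in both: it had 608 and 852 CPM in WT Lrig1 and 579, 455 and 763 CPM in WT Lgr6 libraries, against 188, 248 and 36 CPM in WT Lgr5 libraries. Its log2 fold changes were 2.21 ± 0.57 and 1.93 ± 0.53 (adjusted p = 0.0111 and 0.0157, edgeR).

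Complex IV, cytochrome c oxidase, reduces oxygen to water. It had the fewest calls for its size: of 16 tested genes, 4 were higher in WT Lrig1 against WT Lgr5 and 5 in WT Lgr6 against WT Lgr5, with medians of 1.30 and 1.26. No test was made of complex IV against the other complexes. The genes called in both were Cox4i1, Cox6b1, Cox7a2l and Ndufa4l2, with Cox6a1 added in the Lgr6 comparison. Cox7a2l had 452 and 432 CPM in WT Lrig1 libraries and 273, 284 and 370.4 CPM in WT Lgr6 libraries, against 102, 88.4 and 66.3 CPM in WT Lgr5 libraries. Cox4i1 had 279 and 276 CPM in WT Lrig1 libraries and 298, 490.2 and 542 CPM in WT Lgr6 libraries, against 98.2, 45.3 and 14 CPM in WT Lgr5 libraries. For both genes the WT Lgr5 libraries lay below all other control libraries. Cox7a2l gave log2 fold changes of 2.37 ± 0.36 and 1.86 ± 0.33 (adjusted p = 5.82e-05 and 0.0003, edgeR), and Cox4i1, a regulatory subunit, 2.40 ± 0.55 and 3.08 ± 0.53 (adjusted p = 0.0043 and 0.000242), in WT Lrig1 and WT Lgr6 against WT Lgr5. Cox6b1, the most abundant complex IV gene per kb, stood at 625 ± 70.9 CPM per kb in WT Lrig1 (SD, n = 2) and 652 ± 211 in WT Lgr6 cells, against 117 ± 85.6 in WT Lgr5 cells (SD, n = 3 each). Cox6b1 had 407 and 478 CPM in WT Lrig1 libraries and 391.9, 360.3 and 633 CPM in WT Lgr6 libraries, against 144, 82.9 and 22.7 CPM in WT Lgr5 libraries. Cox5a, Cox5b, Cox6c, Cox7a2, Cox7b, Cox7c, Cox8a and Ndufa4 were positive in both comparisons, between 0.48 and 2.09 on the log2 scale, and none passed.

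Complex V makes ATP with a rotating catalytic head and a membrane ring. Of its 17 genes, 12 were higher in WT Lrig1 against WT Lgr5 and 13 in WT Lgr6 against WT Lgr5, with medians of 1.88 and 1.66. Atp5o, part of the stalk that holds the head in place, and Atp5c1, the central shaft, had the smallest p-values in the first, and Atp5o and Atp5d, also of the central shaft, in the second. Atp5o had 314 and 391 CPM in WT Lrig1 libraries and 307, 228 and 366 CPM in WT Lgr6 libraries, against 72.4, 53.1 and 40.2 CPM in WT Lgr5 libraries. Atp5c1 had 718 and 945 CPM in WT Lrig1 libraries and 652, 423 and 1138 CPM in WT Lgr6 libraries, against 209.8, 147 and 52.8 CPM in WT Lgr5 libraries. Atp5d had 60.8 and 66.7 CPM in WT Lrig1 libraries and 75, 149 and 58.3 CPM in WT Lgr6 libraries, against 20.4, 15.6 and 8.09 CPM in WT Lgr5 libraries. In each of the 3 genes every WT Lgr5 library was below every other control library. Log2 fold changes in WT Lrig1 against WT Lgr5 were 2.67 ± 0.42 for Atp5o, 2.61 ± 0.48 for Atp5c1 and 2.12 ± 0.47 for Atp5d (adjusted p = 0.0001, 0.000551 and 0.00288, edgeR). In WT Lgr6 against WT Lgr5 they were 2.44 ± 0.40, 2.43 ± 0.45 and 2.68 ± 0.44 (adjusted p = 0.000113, 0.000471 and 0.000141, edgeR). The catalytic head subunits Atp5a1 and Atp5b passed in both, at 1.43 and 1.88 in WT Lrig1 and 1.47 and 1.95 in WT Lgr6 against WT Lgr5. Atp5k was the most abundant complex V gene per kb, at 763 ± 75.6 CPM per kb in WT Lrig1 (SD, n = 2) and 555 ± 33.3 in WT Lgr6 cells, against 175 ± 103 in WT Lgr5 cells (SD, n = 3 each). Atp5k had 437 and 503 CPM in WT Lrig1 libraries and 355, 318 and 352 CPM in WT Lgr6 libraries, against 124, 162 and 38.2 CPM in WT Lgr5 libraries. Atp5e, Atp5g3, Atp5mpl and Atp5s did not pass in either, and Atp5g2 passed in the Lgr6 comparison.

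**Figure D2:**
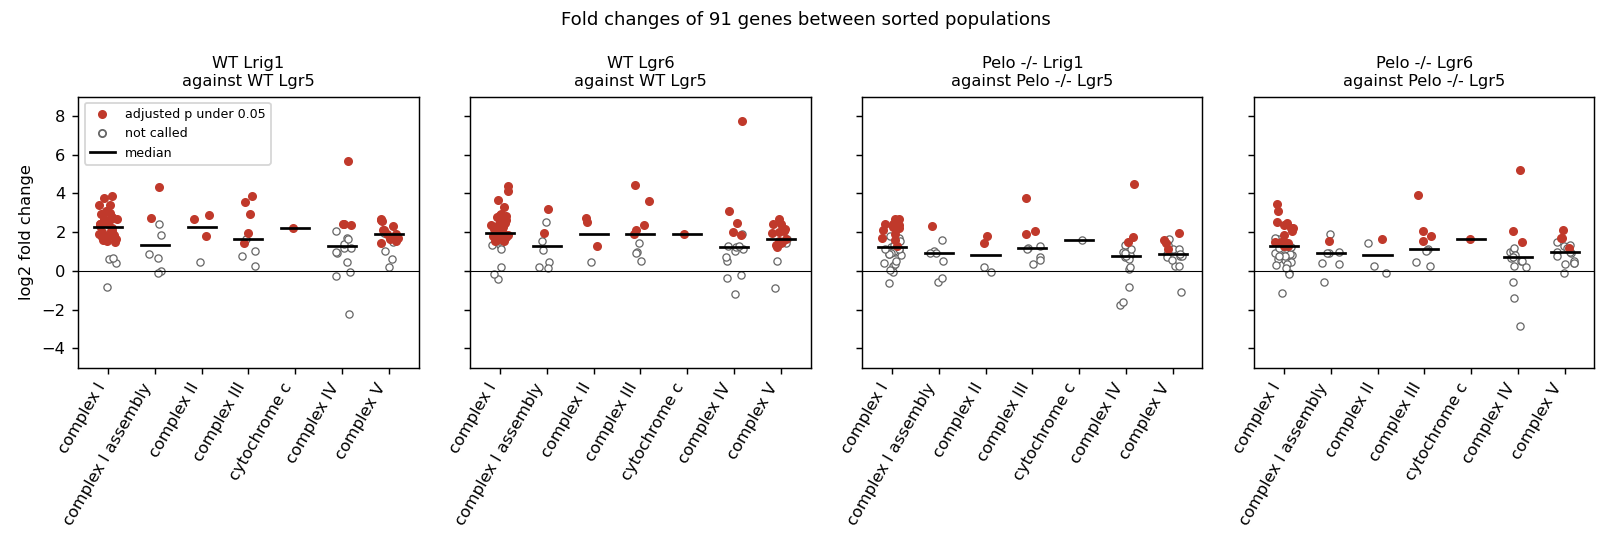
Log2 fold change (vertical axis) of each of the 91 tested genes, by complex, in 4 comparisons of Lrig1 or Lgr6 with Lgr5 cells. Filled points had an adjusted p under 0.05 and lines are medians. All called genes were higher in Lrig1 or Lgr6 cells, and fewer were called in Pelo -/- than in WT cells.

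Several subunits exist as paralogs, of which cells use 1 or more. The widest contrast was Ndufa4l2 (chr10:127514967-127517154, GRCm38), a paralog of Ndufa4 known as a hypoxia-responsive gene. Ndufa4l2 had 58.1 and 58.9 CPM in WT Lrig1 libraries and 69.8, 97 and 567 CPM in WT Lgr6 libraries, against 0.541, 0.0641 and 2.79 CPM in WT Lgr5 libraries. In the Pelo -/- libraries it had 67.1, 36 and 74.1 CPM in Pelo -/- Lrig1 libraries and 74, 135 and 84.3 CPM in Pelo -/- Lgr6 libraries, against 3.05, 0.638 and 4.13 CPM in Pelo -/- Lgr5 libraries. All 6 Lgr5 libraries were below all 11 others, and WT Lgr6 replicate 3 was far above the rest. The log2 fold changes were 5.65 ± 1.03 in WT Lrig1 and 7.72 ± 1.09 in WT Lgr6 against WT Lgr5, and 4.49 ± 0.94 in Pelo -/- Lrig1 and 5.21 ± 0.97 in Pelo -/- Lgr6 against Pelo -/- Lgr5 (adjusted p = 0.00109, 9.01e-05, 0.00545 and 0.00159, edgeR). The WT Lgr5 values rest on 8, 1 and 51 counts. As a share of Ndufa4 and Ndufa4l2 together, per kb of exon, it made up 8.34% to 57.2% in the 11 Lrig1 and Lgr6 libraries and 0.0291% to 9.17% in the 6 Lgr5 libraries, without overlap except for WT Lgr5 replicate 3 at 9.17%, above 1 Pelo -/- Lrig1 library.

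Atp5g1, Atp5g2 and Atp5g3 encode the same mature ring subunit c with different import signals. Atp5g1 made up 11.1% to 27.6% of the family per kb in the Lrig1 and Lgr6 libraries and 3.42% to 14.6% in the Lgr5 libraries, while Atp5g3 made up 33% to 49.5% in the Lrig1 and Lgr6 libraries and 50.7% to 68.6% in the Lgr5 libraries. The Atp5g3 shares did not overlap, and those of Atp5g1 overlapped where Pelo -/- Lgr5 replicate 1, at 14.6%, was above 1 Pelo -/- Lgr6 and 1 WT Lgr6 library. Atp5g1 was called at 2.55 ± 0.67 in WT Lrig1 and 2.07 ± 0.62 in WT Lgr6 against WT Lgr5 (adjusted p = 0.0145 and 0.0309, edgeR), and Atp5g3 was not, at 0.19 ± 0.41 and 0.51 ± 0.37 (adjusted p = 0.741 and 0.417). Cox7a2l made up 28.6% to 43.9% of the Cox7a family in the Lrig1 and Lgr6 libraries and 15.6% to 34% in the Lgr5 libraries. Several tissue-restricted isoforms were at trace levels: Cox6a2, Cox7b2, Cox8b and Cox8c had too few counts to test, Cox4i2 had 0 to 17 counts and Cox7a1 0 to 24 counts a library. Cox6b2, the testis-type paralog of Cox6b1, was higher than these, with 1 to 177 counts a library. It had 5.27 and 1.74 CPM in WT Lrig1 and 0.119, 7.46 and 1.66 CPM in WT Lgr6 libraries, against 2.64, 3.4 and 4.81 CPM in WT Lgr5 libraries, which overlap, and 3.82, 3.32 and 3.58 CPM in Pelo -/- Lrig1 libraries and 4.8, 2.31 and 0.0531 CPM in Pelo -/- Lgr6 libraries, against 10.4, 1.06 and 7.35 CPM in Pelo -/- Lgr5 libraries.

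**Figure D3:**
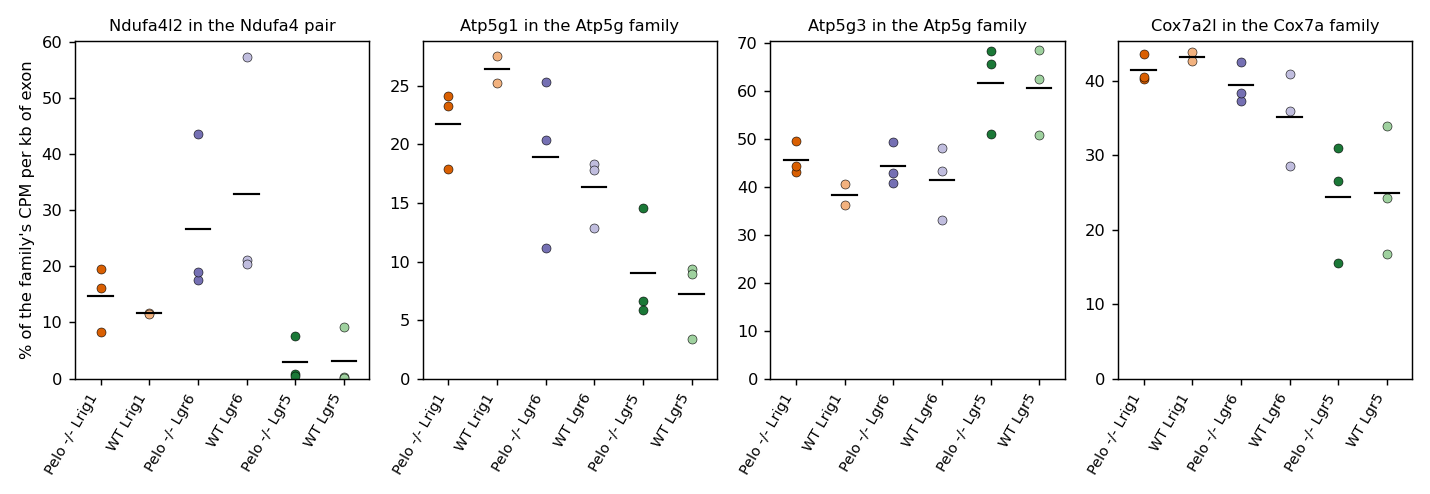
Share of each paralog family's CPM per kb of exon (vertical axes, %) in each of the 17 libraries (points), with group means as lines. The group means of Ndufa4l2, Atp5g1 and Cox7a2l are lowest in the Lgr5 groups and those of Atp5g3 highest, and only the Atp5g3 points do not overlap.

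Respiratory genes have many processed pseudogenes, and these shared their counts. Annotated pseudogenes that match at least 90% of bases over at least 80% of the coding sequence were found for 29 of the 95 genes, 66 copies in all. For 8 genes over 50% of the joint counts were listed under the copies: Atp5g1, Atp5g2, Atp5h, Cox6c, Cox7c, Ndufab1, Ndufb4 and Uqcrb. Over 10% were under the copies for 17 genes, these 8 among them, with Ndufs5 at 46.4%, Ndufs3 at 46.2%, Cycs at 29.1% and Atp5o at 28.6%. For Atp5g2 the copies held 82.7% in the Lrig1 and Lgr6 libraries and 78% in the Lgr5 libraries, and for Atp5g1 57.9% in the Lrig1 and Lgr6 libraries and 58% in the Lgr5 libraries. The levels of these 17 genes, and the Atp5g shares above, are therefore uncertain. With the counts of the copies added to their genes, 58 genes were called higher in WT Lrig1 against WT Lgr5 and 56 in WT Lgr6 against WT Lgr5. Exons of 27 of the genes overlap exons of a gene on the opposite strand and those of 3, Atp5g2, Ndufb2 and Ndufb8, a gene on the same strand, so that reads in those parts cannot be told apart.

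The mitochondrial genome did not follow to the same extent by value. Of its 13 protein-coding genes, 2 were higher in WT Lrig1 against WT Lgr5, mt-Co1 at 2.45 ± 0.57 (SE, adjusted p = 0.0048, edgeR) and mt-Co3 at 1.42 ± 0.45 (adjusted p = 0.0425), both core subunits of complex IV. Only mt-Co1 was higher in WT Lgr6 against WT Lgr5, at 2.20 ± 0.53 (adjusted p = 0.00564, edgeR). These counts stand beside 9.09% and 10.6% of all genes higher in the 2 comparisons, and with 13 genes they are near those shares. The medians over the 13 were 0.96 and 0.69. The ratio of their summed CPM to that of the 95 nuclear genes was 2.19 to 4.22 in the 11 Lrig1 and Lgr6 libraries and 4.09 to 6.24 in the 6 Lgr5 libraries. These ranges overlap, in Pelo -/- Lrig1 replicate 3 at 4.22 and WT Lgr5 replicate 2 at 4.09.

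**Figure D4:**
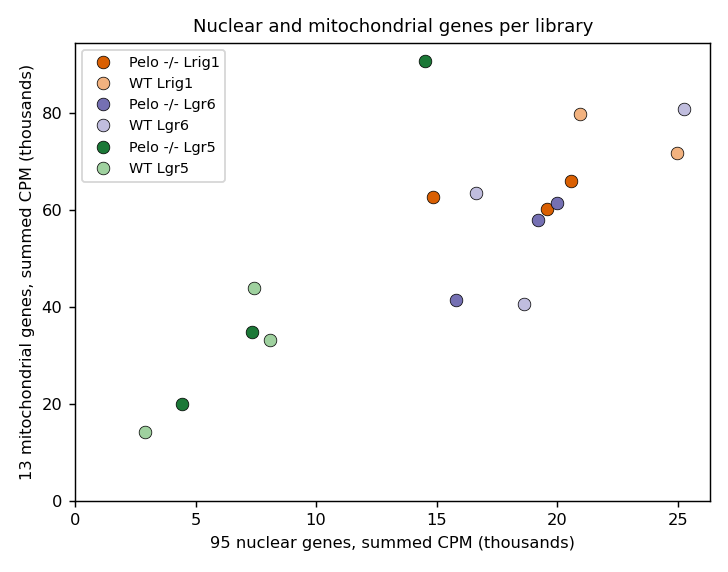
Summed CPM of the 95 nuclear genes (horizontal axis) and of the 13 protein-coding genes of the mitochondrial genome (vertical axis), with 1 point per library. The Lgr5 libraries lie to the left, and 1 Pelo -/- Lgr5 library has the highest mitochondrial sum of all 17.

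Other genes of energy metabolism were also higher in WT Lrig1 and WT Lgr6 cells, and their counts stand beside 9.09% and 10.6% of all genes higher and 1.99% and 1.57% lower. Of 21 glycolysis genes, 12 and 15 were called higher in WT Lrig1 and WT Lgr6 against WT Lgr5 and 0 lower, with medians of 2.12 and 2.19. They were led by Aldoa, an aldolase, at 3.39 ± 0.42 and 3.44 ± 0.40 (SE). Of 18 TCA cycle genes, 8 were higher in each, with medians of 1.31 and 1.10, among them Cs, citrate synthase, at 2.87 ± 0.41 and 2.93 ± 0.39. Of 20 carriers, porins and uncouplers, 8 and 11 were higher, including Slc25a5, which exchanges ADP and ATP, and Ucp2. Assembly factors outside the symbol rule gave 15 and 16 of 44, with Higd1a at 4.12 ± 0.56 and 3.94 ± 0.54. Antioxidant genes gave 10 and 12 of 22 higher, with 1 lower in WT Lrig1 cells, Txnrd2, a mitochondrial thioredoxin reductase named after its value was seen. Of 24 regulators of mitochondrial biogenesis, 1 was higher in WT Lrig1 against WT Lgr5, Ppara, and 1 was lower, a number near these shares of all genes. Ppargc1a, a coactivator of respiratory genes, was the lower one, at -5.67 ± 1.56 (adjusted p = 0.0184, edgeR). Ppargc1a had 0.719 and 0.0484 CPM in WT Lrig1 and 1.61, 2.22 and 7.81 CPM in WT Lgr6 libraries, against 15, 0.641 and 42.9 CPM in WT Lgr5 libraries, which overlap. The 3 of 24 regulators higher in WT Lgr6 against WT Lgr5, Ppara, Gabpb2 and Mterf4, are also near the share of all genes.

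Markers of several cell types differed between the populations in level. The 4 suprabasal keratinocyte markers summed to 3189 to 11569.8 CPM in the Lrig1 and Lgr6 libraries and 33.7 to 132 CPM in the Lgr5 libraries, with Lor, a marker of later differentiation, at most 1.87 CPM in any library. Basal keratinocyte markers summed to 11234 to 20618 CPM in Lrig1 and Lgr6 and 1707 to 5317 CPM in Lgr5 libraries, and bulge and germ markers to 127 to 409 CPM in Lrig1 and Lgr6 and 1359.5 to 2469.8 CPM in Lgr5 libraries. The 6 melanocyte markers summed to 11.8 to 38.2 CPM in Lrig1 and Lgr6 libraries and 53.2 to 309 CPM in Lgr5 libraries, with Mlana at 0 in 7 of the 11 Lrig1 and Lgr6 libraries. T cell markers summed to 13.9 to 58.2 CPM in Lrig1 and Lgr6 and 1.54 to 8.45 CPM in Lgr5 libraries, and fibroblast markers to 1.38 to 20.8 CPM in Lrig1 and Lgr6 and 34.6 to 66.9 CPM in Lgr5 libraries. Pericyte and smooth muscle markers summed to 8.38 to 35.7 CPM in Lrig1 and Lgr6 and 42.8 to 127 CPM in Lgr5 libraries. Langerhans cell and macrophage markers overlapped, at 0.532 to 10.9 CPM in Lrig1 and Lgr6 and 1.35 to 7.6 CPM in Lgr5 libraries, and so did endothelial, muscle and red cell markers. The Lgr5 libraries held 9647507 to 17219054 counts, beside 13333497 to 28098841 in the others, which overlap through Pelo -/- Lgr5 replicate 1, and up to 16.6% of counts in a single predicted gene, Gm10800. The part of these differences in the respiratory genes was not tested.

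The same contrast was present among cells labelled Pelo -/-, with fewer calls. In Pelo -/- Lrig1 against Pelo -/- Lgr5, 25 of 91 genes were higher and 0 lower, beside 5.77% of all genes higher and 2.08% lower (7.85% in either direction), with a median log2 fold change of 1.10 beside -0.64 over all genes. In Pelo -/- Lgr6 against Pelo -/- Lgr5, 29 were higher and 0 lower, beside 7.23% of all genes higher and 2.72% lower (9.95% in either direction), with medians of 1.03 and -0.61. Both use the same 3 Pelo -/- Lgr5 libraries. By complex the calls were 12 and 15 in complex I, 1 and 1 among its assembly genes, 2 and 1 in complex II, 3 and 4 in complex III, 0 and 1 for cytochrome c, 3 and 3 in complex IV, and 4 and 4 in complex V. Of the 25 genes, 24 were also among the 58 of WT Lrig1 against WT Lgr5, which is 96.0% of the shorter list and 41.4% of the longer. Of the 29, 27 were among the 57 of WT Lgr6 against WT Lgr5, 93.1% and 47.4%. The WT lists themselves hold 58 and 57 of the 91 tested genes, so a large overlap needs no link between the lists.

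Uqcrc1 again had a wide gap, with 114, 88.9 and 60.5 CPM in Pelo -/- Lrig1 libraries and 90.8, 100.4 and 110.0 CPM in Pelo -/- Lgr6 libraries, against 9.04, 8.15 and 2.47 CPM in Pelo -/- Lgr5 libraries. Ndufs8 had 164, 209 and 139.6 CPM in Pelo -/- Lrig1 libraries and 206, 132 and 195 CPM in Pelo -/- Lgr6 libraries, against 33.7, 36.3 and 27.2 CPM in Pelo -/- Lgr5 libraries. In neither gene did a Pelo -/- Lgr5 library reach the lowest of the others. The log2 fold changes were 3.75 ± 0.58 and 3.94 ± 0.59 for Uqcrc1 (SE, adjusted p = 0.000169 and 7.54e-05, edgeR) and 2.40 ± 0.41 and 2.45 ± 0.41 for Ndufs8 (adjusted p = 0.000385 and 0.000227) in Pelo -/- Lrig1 and Pelo -/- Lgr6 against Pelo -/- Lgr5. Ndufaf4, a complex I assembly factor, was called in both Pelo -/- comparisons, at 2.31 ± 0.45 and 1.55 ± 0.44, and in neither WT comparison, at 0.86 ± 0.47 and 1.06 ± 0.43. It had 50.1, 41.4 and 57.5 CPM in Pelo -/- Lrig1 libraries and 25.1, 34.7 and 28.7 CPM in Pelo -/- Lgr6 libraries, against 16, 7.87 and 6.23 CPM in Pelo -/- Lgr5 libraries. Cyc1 was called in Pelo -/- Lgr6 against Pelo -/- Lgr5 at 1.57 ± 0.49 (adjusted p = 0.039, edgeR).

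These counts depended on single Pelo -/- Lgr5 libraries: they rose without replicate 1 and fell without replicate 2 or replicate 3. The respiratory genes of replicate 1 stood nearest to the other populations. The summed CPM of the 95 genes was 14532, 7328 and 4437 in Pelo -/- Lgr5 libraries, beside 14853 to 25245 in the 11 Lrig1 and Lgr6 libraries. As an unscaled share of all counts, Pelo -/- Lgr5 replicate 1, at 1.44%, lay within the range of those 11 libraries, 1.38% to 1.92%. Without Pelo -/- Lgr5 replicate 1, 45 genes were higher in Pelo -/- Lrig1 and 47 in Pelo -/- Lgr6 against Pelo -/- Lgr5, and the medians were 1.69 and 1.67. Without Pelo -/- Lgr5 replicate 2 they were 10 and 15, and without replicate 3 they were 14 and 15. With each library left out in turn the medians ran from 0.81 to 1.69 in Pelo -/- Lrig1 and from 0.81 to 1.67 in Pelo -/- Lgr6 against Pelo -/- Lgr5. In Pelo -/- Lrig1 against Pelo -/- Lgr5 the count was 13 without Pelo -/- Lrig1 replicate 1 and 16 without replicate 2, and in Pelo -/- Lgr6 against Pelo -/- Lgr5 it was 19 without Pelo -/- Lgr6 replicate 1. Of the called genes, 10 and 13 stayed called in every setting.

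No respiratory gene passed the test between Lrig1 and Lgr6 cells. In WT Lrig1 against WT Lgr6, 0 of 91 genes were called by edgeR, DESeq2 or limma-voom, 3 had an unadjusted p under 0.05 in edgeR, beside 1420 of all 30405 genes, and the background was 0.0% of all genes. The median log2 fold change was 0.13, with 49 genes higher and 42 lower in value, and a median SE of 0.54. That median ran between -0.01 without WT Lrig1 replicate 2 and 0.56 without WT Lgr6 replicate 3, with 0.02 without WT Lgr6 replicate 1, 0.09 without WT Lgr6 replicate 2 and 0.33 without WT Lrig1 replicate 1. In Pelo -/- Lrig1 against Pelo -/- Lgr6, 0 were called by the 3 tools, 0 had an unadjusted p under 0.05, beside 1277 of all genes, and the median was 0.01 with a median SE of 0.48. With each library left out in turn that median lay between -0.07 and 0.15, on either side of 0. The fit took 1 spread per gene from all groups, the wider Lgr5 libraries included. The SE between Lrig1 and Lgr6 cells may therefore be overstated, and the lack of calls does not show equal levels.

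The comparison of libraries labelled Pelo -/- with WT sets intended deletion of both Pelo alleles against that of 1, since the controls were Pelo fl/+ with the same cassettes and treatment. It gave no called respiratory gene in any population with edgeR. In libraries labelled Pelo -/- Lrig1 against WT Lrig1, 0 of 91 genes passed edgeR's test, beside 0.0% of all genes, 0 passed limma-voom and 1 passed DESeq2, and 1 had an unadjusted p under 0.05 in edgeR, beside 1106 of all 30405 genes. Values leaned down, with 76 genes lower and 15 higher and a median log2 fold change of -0.29, beside -0.02 over all genes. The median was -0.02 without WT Lrig1 replicate 2 and -0.16 without Pelo -/- Lrig1 replicate 3. The gene with the smallest p was Atp5s, the coupling factor. It had 12.9, 7.54 and 6.23 CPM in libraries labelled Pelo -/- Lrig1, against 40.6 and 53 CPM in WT Lrig1 libraries, without overlap. Its log2 fold change was -2.39 ± 0.58 (SE), with an unadjusted p of 0.000375 and an adjusted p of 1.0 in edgeR. Of 9 other settings with all libraries only DESeq2 called it, and the share of all genes that DESeq2 called is not given here. In the other populations Atp5s was 0.12 ± 0.52 in Lgr6 and -0.67 ± 0.52 in Lgr5 cells. Next by p were Ndufb7 at -1.35 ± 0.67 and Atp5o at -0.73 ± 0.42 among lower genes, and Ndufaf4 at 0.71 ± 0.49, Cox7a1 at 1.14 ± 1.48 and Ndufab1 at 0.35 ± 0.55 among higher ones. Ndufb7, an accessory subunit of complex I, had 13.9, 21.2 and 9.11 CPM in libraries labelled Pelo -/- Lrig1, against 31.2 and 43.9 CPM in WT Lrig1 libraries, without overlap. Atp5o had 248, 208 and 184 CPM, against 314 and 391 CPM in WT Lrig1. Among the higher genes Ndufaf4 had 50.1, 41.4 and 57.5 CPM in libraries labelled Pelo -/- Lrig1, against 23 and 37.8 CPM in WT Lrig1. Ndufab1 had 18.4, 15.5 and 18.1 CPM, against 11.1 and 16.1 CPM in WT Lrig1, and Cox7a1 0, 0.362 and 0.389 CPM, against 0.12 and 0.0967 CPM in WT Lrig1, the last at trace level.

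In Lgr5 cells the values leaned the other way. In libraries labelled Pelo -/- Lgr5 against WT Lgr5, 0 of 91 genes passed in edgeR, DESeq2 or limma-voom, beside 0.0197% of all genes higher in edgeR, and 12 had an unadjusted p under 0.05, beside 1901 of all 30405 genes. The median log2 fold change was 0.55, beside -0.14 over all genes, with 75 genes higher and 16 lower in value. Pelo -/- Lgr5 replicate 1 and WT Lgr5 replicate 3 decided that lean. The summed CPM was 14532, 7328 and 4437 in libraries labelled Pelo -/- Lgr5, against 7418, 8104 and 2907 in WT Lgr5 libraries. Without Pelo -/- Lgr5 replicate 1 the median was -0.08, without WT Lgr5 replicate 3 it was 0.24, and without both it was -0.53. The melanocyte sum was 309, 145 and 146 CPM in libraries labelled Pelo -/- Lgr5, against 53.2, 125 and 98.2 CPM in WT Lgr5. In the same order, basal keratinocyte sums were 5317, 3568 and 3149 CPM, against 3050, 3554 and 1707 CPM. Suprabasal keratinocyte sums were 33.7, 91.1 and 128 CPM, against 43.4, 132 and 43.1 CPM. The part of such differences in the lean was not tested.

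The smallest p-values in Lgr5 cells belonged to Uqcrc2, Ndufb6 and Atp5d. Uqcrc2 had 45.4, 33.5 and 19.9 CPM in libraries labelled Pelo -/- Lgr5, against 10.3, 16.2 and 12.1 CPM in WT Lgr5 libraries, without overlap. Ndufb6 had 21.4, 22.9 and 10.5 CPM, against 0.744, 6.41 and 0 CPM in WT Lgr5, and Atp5d 53, 26.2 and 30.7 CPM, against 20.4, 15.6 and 8.09 CPM in WT Lgr5. All 3 were higher in value in every library labelled Pelo -/- Lgr5 than in any WT Lgr5 library. Their log2 fold changes were 1.35 ± 0.39, 2.94 ± 0.91 and 1.32 ± 0.43 (SE), with adjusted p of 0.384, 0.511 and 0.53 in edgeR. Ndufb6 passed without WT Lgr5 replicate 2. Lowest in value by p were Ndufaf4 at -0.74 ± 0.43, Cyc1 at -0.71 ± 0.48 and Atp5s at -0.67 ± 0.52. Ndufaf4 had 16, 7.87 and 6.23 CPM in libraries labelled Pelo -/- Lgr5, against 19.2, 14.8 and 16.3 CPM in WT Lgr5. Cyc1 had 35.9, 33.3 and 18.8 CPM, against 38.4, 91.6 and 13.8 CPM in WT Lgr5, and Atp5s 15.8, 32.6 and 8.21 CPM, against 23.3, 35.2 and 31.5 CPM in WT Lgr5. All 3 overlapped between the groups.

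In Lgr6 cells 0 of 91 genes were called in libraries labelled Pelo -/- against WT by edgeR, DESeq2 or limma-voom, beside 0.0% of all genes in edgeR, and 0 had an unadjusted p under 0.05, beside 1180 of all 30405 genes. The median was -0.20, beside -0.27 over all genes, with 64 genes lower and 27 higher in value. Without WT Lgr6 replicate 3 the median was 0.13. The 3 lower genes with the smallest p were all accessory subunits of complex I: Ndufa12 at -0.92 ± 0.48, Ndufa6 at -0.76 ± 0.44 and Ndufa13 at -0.70 ± 0.41. Ndufa12 had 86.1, 46.2 and 104 CPM in libraries labelled Pelo -/- Lgr6, against 77.3, 142 and 229.6 CPM in WT Lgr6 libraries, which overlap. Ndufa6 had 99.1, 174 and 329.7 CPM, against 134, 334 and 551 CPM in WT Lgr6, and Ndufa13 84.6, 66.4 and 108 CPM, against 78.7, 134 and 207 CPM in WT Lgr6. The higher ones were Ndufa7 at 0.46 ± 0.45, Ndufa1 at 0.41 ± 0.51 and Cyc1 at 0.37 ± 0.47. Ndufa7 had 448, 271 and 589 CPM in libraries labelled Pelo -/- Lgr6, against 292, 208 and 451 CPM in WT Lgr6. Ndufa1 had 673, 411 and 554 CPM, against 444, 347 and 440.0 CPM in WT Lgr6, and Cyc1 97, 88.7 and 75 CPM, against 51.5, 102 and 48.6 CPM in WT Lgr6.

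The differences between the Pelo effects of the populations were tested as contrasts of 4 groups, and 0 of 91 genes were called by edgeR, DESeq2 or limma-voom in any, beside 0.0% of all genes in edgeR. At an unadjusted p under 0.05 there were 11 for Lrig1 minus Lgr5, 11 for Lgr6 minus Lgr5 and 1 for Lrig1 minus Lgr6, beside 1613, 1454 and 1278 of all 30405 genes. The medians over the 91 genes were -0.87 for Lrig1 minus Lgr5, -0.62 for Lgr6 minus Lgr5 and -0.08 for Lrig1 minus Lgr6. Without Pelo -/- Lgr5 replicate 1 and WT Lgr5 replicate 3 the first 2 were 0.22 and 0.41. The median for Lrig1 minus Lgr5 was -0.25 without Pelo -/- Lgr5 replicate 1, -0.52 without WT Lgr5 replicate 3 and -0.53 without WT Lrig1 replicate 2. For Lgr6 minus Lgr5 it was -0.10 without Pelo -/- Lgr5 replicate 1, -0.27 without WT Lgr5 replicate 3 and -0.29 without WT Lgr6 replicate 3, and for Lrig1 minus Lgr6 it ran from -0.39 to 0.07 over the left-out libraries. The typical SE of a single gene was 0.53 for the Pelo effect in Lrig1, 0.48 in Lgr6 and 0.48 in Lgr5 cells. Changes of that size in single genes were not detectable in this fit. Its spread per gene is shared by all groups, so these SEs may be too large in Lrig1 and Lgr6 cells and too small in Lgr5 cells. Much larger ones did not pass edgeR's test either, such as -2.39 for Atp5s in Lrig1 and 2.94 for Ndufb6 in Lgr5 cells. Across the lists of mitochondrial genome, assembly, TCA cycle, glycolysis, regulator, carrier and antioxidant genes, 0 were called in each of the 3 Pelo comparisons by edgeR.

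**Figure D5:**
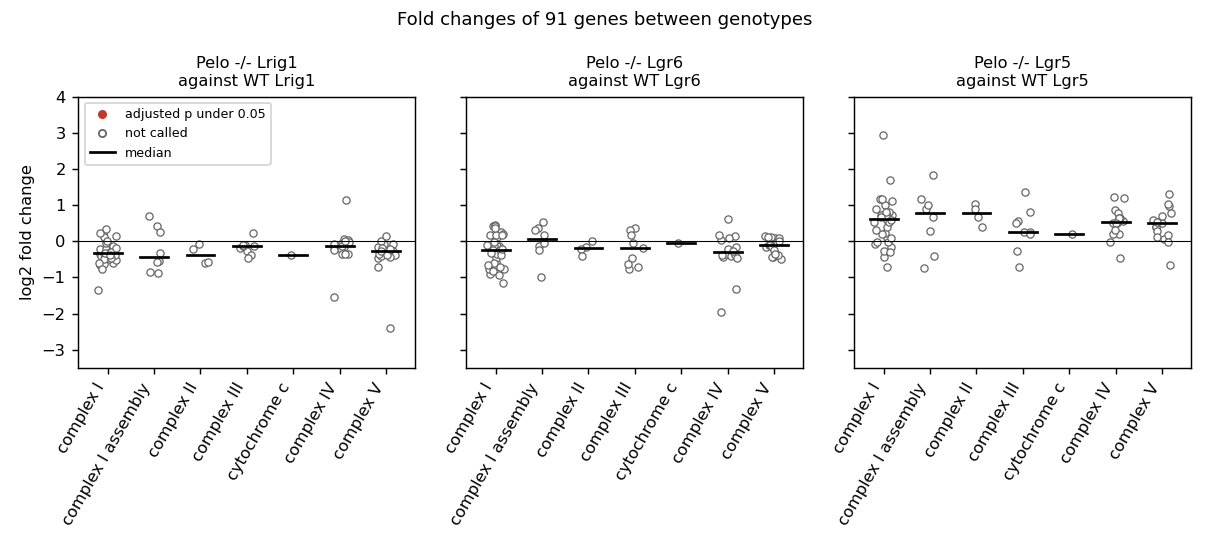
Log2 fold change (vertical axis) of each of the 91 tested genes, by complex, in libraries labelled Pelo -/- against WT in Lrig1, Lgr6 and Lgr5 cells. No gene had an adjusted p under 0.05, and the medians (lines) lie between -0.43 and 0.79.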

How the data were processed

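RNA-seq counts per gene, as deposited by the authors for 17 libraries, were the starting point. STAR, edgeR and the build GRCm38 (mm10) are named per the submitters' processing notes; the sources used here do not give the counting tool, its annotation or its use of strand. Of 48820 identifiers, 48144 matched the mouse annotation without version numbers and 676 did not; 12 non-coding or pseudogene rows with matching symbols were left out. Genes passing edgeR's filterByExpr (minimum count 10, minimum total 15), 30405 in all, entered 1 quasi-likelihood fit over all 6 groups with TMM scaling, and p-values were adjusted by Benjamini-Hochberg over all of them, with a threshold of 0.05. Standard errors were taken as |log2 fold change| divided by √F. Tools were R 4.3.3, edgeR 4.0.16, limma 3.58.1, DESeq2 1.42.0, Python 3.11 and pandas 2.3.3. The fit was also run on simulated counts with a smaller spread than these libraries have. That run checks the code and cannot show the error rates in these data. The members and lists were chosen with earlier results of these data known. Values per library are given for the genes with the smallest p in each complex and Pelo comparison, the most abundant ones and paralogs; other genes given by library, such as Ndufs5, Sdha and Cyc1, were chosen after their values were seen. Alternatives were RLE size factors, other filters, nuclear coding genes alone, a replicate block, DESeq2, limma-voom, the compared groups alone and each library left out.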

Additional observations from a re-analysis of the deposited data

How the results depend on the processing

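Calls between populations kept their direction in all 4 comparisons with Lgr5 cells, while their number moved with the libraries. Leaving out each library in turn gave 22 to 58 genes higher in WT Lrig1 against WT Lgr5, 27 to 52 in WT Lgr6 against WT Lgr5, 10 to 45 in Pelo -/- Lrig1 and 15 to 47 in Pelo -/- Lgr6 against Pelo -/- Lgr5, and 0 to 1 in Pelo -/- Lgr5 against WT Lgr5. Without both Pelo -/- Lgr5 replicate 1 and WT Lgr5 replicate 3, a choice made after seeing the data, 60 and 61 genes were higher in Pelo -/- Lrig1 and Pelo -/- Lgr6 against Pelo -/- Lgr5; adding pseudogene copies was also chosen then. With the compared groups alone, 35 were higher in WT Lgr6 against WT Lgr5. Lower calls appeared under a minimum mean CPM of 5: 1 (Ndufab1) in WT Lrig1 and 2 (Ndufab1 and Atp5s) in WT Lgr6 against WT Lgr5, and 1 (Atp5s) in Pelo -/- Lrig1 against Pelo -/- Lgr5. DESeq2 gave 1 lower call in WT Lrig1 against WT Lgr5 (Ndufab1) and 1 in Pelo -/- Lrig1 against WT Lrig1 (Atp5s). The cause was not tested. RLE size factors in place of TMM moved the median of all genes to -1.36 in WT Lrig1 and -0.996 in WT Lgr6 against WT Lgr5, with 49 and 39 genes called higher. Replicate numbers did not pair the libraries, and with the replicate block 55, 61, 26 and 32 genes were higher in the 4 population comparisons and 0 called in each Pelo comparison. Across Lgr5 libraries 9 to 23 tested genes were under 10 CPM, beside 5 to 9 in the others, and the part of depth in this difference was not tested.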
